A study of Mus musculus with 14 samples.

Results

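Heart allografts of day 70, from hosts given a tolerizing antibody, were compared with isografts of the same day across all genes on the array. The study measured transplanted mouse hearts on 14 oligonucleotide arrays of the MG-U74Av2 type, in 5 groups. The 3 tolerizing allografts of day 70 were Balb/c hearts placed in C57/BL6 hosts that received a monoclonal antibody to CD80/86. The 2 isografts of day 70 were C57/BL6 hearts in C57/BL6 hosts, with no antibody in their description. Donor strain, antibody and alloantigen thus differ together between the groups and cannot be told apart, and the labels give no age, sex, antibody dose or dosing schedule. The other groups were day-7 isografts, tolerizing allografts and rejecting allografts, with 3 arrays each. The rule took every probe set that was not a control and had a signal above 11 on at least 2 of the 5 day-70 arrays. This kept 9893 of 12422 probe sets (79.6%), of which 8787 carry 1 gene symbol, 332 carry several and 774 carry none, for 7093 of the 8251 genes that have a probe set of their own. The 2529 probe sets left out were too dim to compare. Of those kept, 247 were above 11 on tolerizing arrays alone and 102 on isograft arrays alone. Such a member passed only through the group where it is high and so had to differ, and it is given below as a bound with no p as support.

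CD80 and CD86 are the ligands on antigen-presenting cells that engage CD28 on T cells, and blocking them at the time of transplantation deprives alloreactive T cells of their second signal. T cells that do recognise an allograft make interferon gamma, which induces guanylate-binding proteins and immunity-related GTPases, the immunoproteasome, and MHC class I and class II genes in graft and infiltrating cells. Plasma cells, macrophages and complement are further arms of the response to a graft, and the working heart itself lives mainly on fatty acid oxidation. In whole tissue, fewer cells of a type and less RNA per cell cannot be told apart.

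The heart was recognisable on every array. Of 8 cardiomyocyte markers, 7 are on the array and none passed the test. Their summed signal was 26910 to 32160 in isografts and 22450 to 29690 in tolerizing allografts. Macrophage markers summed to 766 to 1713 against 2438 to 3416, and T cell markers to 150.0 to 154 against 308 to 688. The 5 skeletal muscle markers summed to 552 to 2438 against 3536 to 5121, and none was called. This sum followed Acta1, skeletal actin, which the heart also expresses (52.8 and 2097 against 3355, 3329 and 4811). The others did not follow it: Ckm gave 388 and 258 against 93.9, 279 and 236, Myh4 102 and 71.5 against 65.6, 71.7 and 57.6, and Myh1 and Tnnt3 were at or near the floor. Tolerizing array 1 also carried liver transcripts (Alb at 513, 4.4 and 7.8 and Apoa1 at 209, 4.5 and 7.2 on the 3 tolerizing arrays, against 12.3 and 16.3 and 13.0 and 6.2 in isografts) and the erythroid gene Alas2 (73.0 and 171 against 1544, 290.5 and 108). Hba-a1, the other erythroid marker on the array, gave 1331 and 4680 against 9489, 7000 and 3456, lowest on isograft array 1. The part of these cells in the results below was not tested. The 3'/5' ratio of the beta-actin control, a measure of RNA integrity, was 1.76 and 1.75 in isografts and 1.69, 1.68 and 1.24 in tolerizing allografts.

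At day 70, 353 of the 9893 probe sets (3.57%) passed the test at an adjusted p under 0.05 in limma, 256 higher (2.59%) and 97 lower (0.98%) in tolerizing allografts. By gene, taking the brightest probe set, 242 of 7093 were called (3.41%), of which 169 rose (2.38%) and 73 fell (1.03%). The median log2 difference over all genes was -0.10, so the centre of the distribution moved little. Of the probe sets called, 29 of the 256 higher and 8 of the 97 lower were of the kind with 1 whole group at or under the floor. The called probe sets that rose had a median log2 difference of 2.19, and those that fell one of -1.42. The strength of these calls differed between genes. All 353 kept their sign when any 1 of the 5 arrays was left out, but only 59, of which 53 rose and 6 fell, kept an adjusted p under 0.05 in all 5 of those fits. Isograft array 1 mattered most: without it 77 probe sets were called, against 333 without isograft array 2 and 144, 312 and 282 without tolerizing arrays 1, 2 and 3. With an isograft array left out, the remaining one is assumed to vary like the other groups. Whether arrays of a group are separate transplant operations is not stated, so p-values measure the spread between these arrays.

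**Figure D1:**
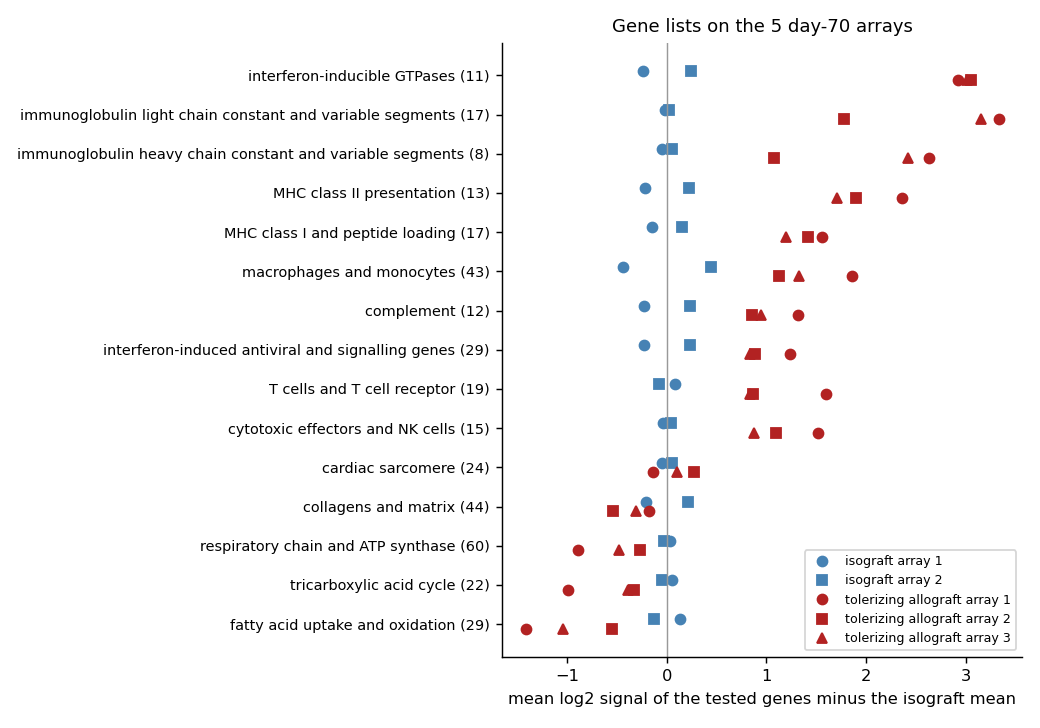
Mean log2 signal of the tested genes of 15 gene lists (number of genes in brackets) on each of the 5 day-70 arrays, minus the mean of the 2 isograft arrays; each point is 1 array. The 3 tolerizing arrays lie together near 3 for the interferon-inducible GTPases, spread from 1.78 to 3.33 for immunoglobulin light chains, and fall below both isograft arrays for fatty acid oxidation.

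The plot of gene lists by array shows the main directions. The interferon-inducible GTPases sat 2.92, 3.05 and 3.01 log2 units above the isograft mean on the 3 tolerizing arrays, with little spread. Macrophage genes sat 1.86, 1.13 and 1.33 above it, and there the isografts themselves differed, at -0.44 and 0.44. Fatty acid genes sat at -1.41, -0.55 and -1.04. Tolerizing array 1 was the highest of the 3 for immunoglobulin, T cell, macrophage and class II genes and the lowest for fatty acid, citric acid cycle and respiratory chain genes.

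The interferon-inducible GTPases, large and small GTP-binding proteins that act on intracellular vacuoles and are induced by interferon gamma, rose as a group. Of 11 tested, 9 were called higher and 0 lower, beside 2.38% of all genes higher, with a median log2 difference of 2.97 beside -0.10 for all genes. The 9 include Gbp2b, which passed the rule only through the tolerizing arrays and so had to differ. Its call is no support here or in the fits with an array left out. Igtp, an immunity-related GTPase, gave signals of 85.6 and 136 on the isograft arrays and 1386, 1752 and 1702 on the tolerizing arrays. Its arrays did not overlap, and its rise was 14.9-fold (log2 difference 3.89 ± 0.36 SE, adjusted p = 4.54e-05). Irgm2, of the same family, gave 149 and 189.8 against 1091, 1456 and 1442, a 7.85-fold rise (log2 difference 2.97 ± 0.27 SE, adjusted p = 4.54e-05). Gbp3, a guanylate-binding protein, went from 126 and 181 to 1146, 1339.7 and 1075, 7.83-fold (log2 difference 2.97 ± 0.31 SE, adjusted p = 0.000135). Ifi47, another immunity-related GTPase, was dim in isografts at 24.8 and 40.6 and reached 457, 396 and 449.7 in tolerizing allografts (log2 difference 3.77 ± 0.5 SE, adjusted p = 0.000936). In each of these 4 genes the lowest tolerizing array lay far above the higher isograft array. The 2 members that were not called were Mx1 and Mx2, dynamin-like antiviral proteins of the type I interferon response, with log2 differences of 0.88 and 0.52. Leaving out isograft array 1 left 7 of the 9 calls, and leaving out any other day-70 array left 9.

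Gbp2b, another guanylate-binding protein, had the largest gap of the list. It was at the bottom of the scale in isografts, at 1.2 and 0.9, and steady at 858, 812 and 808 in tolerizing allografts. Against the floor of 11 this is at least 75.1-fold higher (log2 difference 6.23 ± 0.27 SE). At day 7 its log2 difference was 6.91. On the day-7 arrays it was likewise near the bottom of the scale in all isografts. Donor strain and the state of the graft cannot be told apart for such a gene.

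H2-Ea, the class II alpha chain of I-E, checks the donor strain, because C57BL/6 mice carry a defective copy and do not express it. It gave 5.6 and 12.3 on the isograft arrays and 489, 538 and 446 on the tolerizing arrays (log2 difference 5.4 ± 0.48 SE, adjusted p = 4.54e-05), so each array matched its labelled donor. Pdxdc1, which encodes a pyridoxal-dependent decarboxylase domain protein, was the only gene whose probe sets were called in opposite directions. One probe set rose from 10.6 and 15.2 to 304, 374 and 329 (log2 difference 4.69), while the others fell from 123 and 94.7 to 46.2, 28.1 and 28.8 (-1.69) and from 166 and 144 to 51.4, 22.7 and 38.7 (-2.12). The same probe sets gave 4.7, -1.71 and -2.38 at day 7. Its total level therefore cannot be read from these values.

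**Figure D2:**
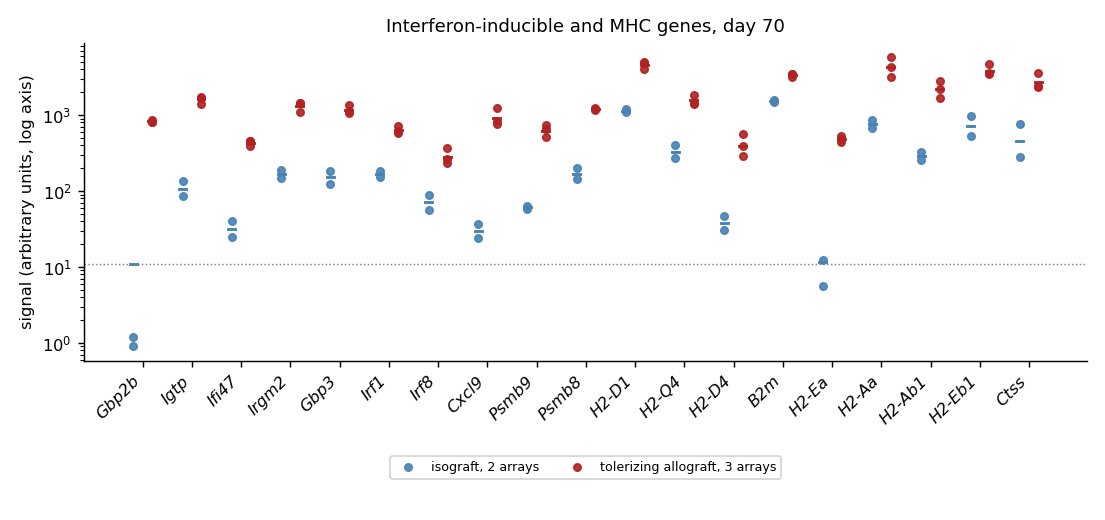
Signal (arbitrary units, log axis) of 19 interferon-inducible, antigen-processing and MHC genes on the 2 isograft arrays and the 3 tolerizing arrays of day 70; points are arrays, bars are geometric means with values under the floor set to 11, and the dotted line is that floor. The 3 tolerizing arrays lie above both isograft arrays for every gene drawn, and Gbp2b and H2-Ea have isograft points near or under the floor.

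Interferon regulatory factors and other interferon-induced genes rose in part. Of 29 tested, 8 were called higher and 0 lower, beside 2.38% of all genes higher, with a median log2 difference of 1.06. Irf1, the transcription factor that carries the interferon gamma signal to class I and GTPase genes, gave 155 and 185 on the isograft arrays and 719, 611 and 578 on the tolerizing arrays, a 3.73-fold rise (log2 difference 1.9 ± 0.29 SE, adjusted p = 0.00236). Irf8, a factor of macrophages, dendritic cells and B cells, gave 56.9 and 89.8 against 368, 260.5 and 237 (log2 difference 1.99 ± 0.33 SE, adjusted p = 0.00424). Irf5, a factor of myeloid inflammation, gave 56.7 and 87.4 against 215, 167 and 173 (log2 difference 1.39 ± 0.24 SE, adjusted p = 0.00491). Ifi30, a lysosomal thiol reductase that prepares antigens for class II, gave 38.6 and 71.3 against 345, 139 and 285 (log2 difference 2.19 ± 0.42 SE, adjusted p = 0.0102). In all 4 the groups did not overlap, but none kept its call without isograft array 1, where the adjusted p was 0.0618 for Irf1, 0.109 for Irf8, 0.101 for Irf5 and 0.215 for Ifi30, and Ifi30 also missed without tolerizing array 1 (0.0529). Leaving out isograft array 1 left 0 of the 8 calls, tolerizing array 1 left 3, and the others left 7 or 8.

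Cxcl9, the interferon gamma-induced chemokine that recruits activated T cells through CXCR3, had the largest rise among genes above the floor on all 5 arrays. Its signals were 24 and 37.1 on the isograft arrays and 1253, 774 and 824 on the tolerizing arrays, a 31.1-fold rise (log2 difference 4.96 ± 0.54 SE, adjusted p = 0.000171), and the call held without any 1 array.

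MHC class I and its peptide supply rose together. Of 17 class I and peptide-loading genes tested, 12 were called higher and 0 lower, beside 2.38% of all genes higher, with a median log2 difference of 1.53. Psmb8 and Psmb9 are the interferon-induced catalytic subunits that turn the proteasome into the immunoproteasome. Psmb9 gave 64 and 58.6 on the isograft arrays and 648, 739.5 and 512 on the tolerizing arrays, 10.2-fold (log2 difference 3.35 ± 0.35 SE, adjusted p = 0.000113). Psmb8 gave 144 and 199 against 1223, 1205 and 1153, 7.03-fold (log2 difference 2.81 ± 0.28 SE, adjusted p = 9e-05). In comparison, 0 of 29 subunits of the constitutive proteasome were called, with a median log2 difference of 0.10. Among class I heavy chains, H2-D1 rose from 1088 and 1184 to 4951, 4833 and 4013 (log2 difference 2.01 ± 0.23 SE, adjusted p = 0.000286). H2-Q4, a nonclassical heavy chain, rose from 269.6 and 400.2 to 1865, 1451 and 1415 (log2 difference 2.25 ± 0.27 SE, adjusted p = 0.00038). H2-D4, which is dim here, rose from 30.9 and 47.1 to 285, 391 and 558 (log2 difference 3.38 ± 0.3 SE, adjusted p = 4.54e-05). Class I genes are close copies that differ between strains, so a probe set can read several of them and can read the alleles of Balb/c and C57/BL6 unequally. Leaving out isograft array 1 left 7 of the 12 calls, and leaving out isograft array 2 left 9. Psmb8, Psmb9, H2-D1 and H2-Q4 held in all 5 of these fits, as did H2-D4, which is not on that list.

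MHC class II genes, which display antigen to CD4 T cells, rose with them. Of 13 tested, 8 were called higher and 0 lower, beside 2.38% of all genes higher, with a median log2 difference of 2.14. The 8 include H2-Ea, which C57BL/6 mice do not express. That call was set by donor strain and does not bear on the other genes of the list. H2-Aa, the I-A alpha chain that both strains express, gave 666 and 854 on the isograft arrays and 5785, 4269.9 and 3124 on the tolerizing arrays, 5.65-fold (log2 difference 2.5 ± 0.32 SE, adjusted p = 0.000734). H2-Ab1, its beta chain, gave 325 and 252 against 2827, 2185 and 1664, 7.59-fold (log2 difference 2.92 ± 0.34 SE, adjusted p = 0.000286). H2-Eb1, the I-E beta chain, gave 529 and 970.3 against 4716, 3535 and 3424 (log2 difference 2.43 ± 0.33 SE, adjusted p = 0.00108). Ctss, cathepsin S, which cleaves the invariant chain from class II, gave 283 and 753 against 3572, 2438 and 2362 (log2 difference 2.57 ± 0.35 SE, adjusted p = 0.00108). All 4 ranked tolerizing array 1 first and none overlapped between groups. Whether the H2 probe sets read the alleles of Balb/c and C57/BL6 equally was not tested. Ciita, the master regulator of class II, was not called at a log2 difference of 0.57. Leaving out isograft array 1 left 5 of the 8 calls, the 4 genes above and H2-Ea, and leaving out any other array left 8.

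Chromosome 17, which carries the mouse MHC, held 32 of the 256 probe sets that rose, out of 476 tested there, beside 2.59% of all probe sets called higher, and 19 of the 256 carry an H2 symbol.

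The promoters of the class I, class II and interferon-induced genes that rose were searched for 3 motifs on both strands, because these genes moved together and the motifs are those by which interferon and class II regulators act. RefSeq windows of 300 bases (GRCm38.p6, 250 before the start site and 50 after it) were found for 32 of the 37 genes. They are reference sequence, and the alleles of the Balb/c hearts were not read. The gamma-activated site TTCNNNGAA was present in 9 of the 32 (28.1%), beside 9.55% of all 27025 genes with a window. The interferon-stimulated response element (GAAA, any 2 bases, GAAA) was present in 11 (34.4%), beside 3.99%. The Y box CTGATTGG, an element shared by MHC promoters, was present in 7 (21.9%), beside 4.70%. At least 1 motif was present in 23 of the 32. These shares describe the letters in the windows and not binding. The lists were picked as interferon-induced and MHC genes, so shares above those of all genes can come from the choice of lists alone. List members that were not called were not searched, so the shares do not bear on the rise. The following lines give the 250 bases before the start site of the brightest of these genes with a match in that stretch, 5' to 3' on the gene's own strand and with the match in capitals. They are from chr17:35262844-35263093 (plus strand, H2-D1), chr2:122147437-122147686 (plus, B2m), chr17:34287824-34288073 (minus, H2-Aa), chr17:34305617-34305866 (plus, H2-Eb1) and chr3:95526536-95526785 (plus, Ctss). The capitals are the Y box in H2-D1 (there on the opposite strand, CCAATCAG), H2-Aa and H2-Eb1, and the interferon-stimulated response element in B2m and Ctss.
H2-D1: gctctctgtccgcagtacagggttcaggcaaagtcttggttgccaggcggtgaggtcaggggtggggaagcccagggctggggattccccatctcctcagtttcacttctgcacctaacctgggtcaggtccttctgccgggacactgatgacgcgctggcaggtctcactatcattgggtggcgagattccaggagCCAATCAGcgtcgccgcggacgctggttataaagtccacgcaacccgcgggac
B2m: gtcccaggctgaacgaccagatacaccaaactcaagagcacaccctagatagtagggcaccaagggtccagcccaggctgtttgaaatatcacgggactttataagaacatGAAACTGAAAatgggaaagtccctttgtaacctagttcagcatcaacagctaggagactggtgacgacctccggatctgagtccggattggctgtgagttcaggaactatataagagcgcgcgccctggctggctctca
H2-Aa: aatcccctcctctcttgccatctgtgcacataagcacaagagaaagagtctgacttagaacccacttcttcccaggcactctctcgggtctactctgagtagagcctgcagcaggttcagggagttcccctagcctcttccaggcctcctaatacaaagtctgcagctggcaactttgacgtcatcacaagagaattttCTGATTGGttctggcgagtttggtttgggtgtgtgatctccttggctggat
H2-Eb1: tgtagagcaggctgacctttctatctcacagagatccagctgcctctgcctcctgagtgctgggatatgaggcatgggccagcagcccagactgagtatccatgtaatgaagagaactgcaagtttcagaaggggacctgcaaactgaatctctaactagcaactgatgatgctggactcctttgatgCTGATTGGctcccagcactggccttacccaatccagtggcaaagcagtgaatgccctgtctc
Ctss: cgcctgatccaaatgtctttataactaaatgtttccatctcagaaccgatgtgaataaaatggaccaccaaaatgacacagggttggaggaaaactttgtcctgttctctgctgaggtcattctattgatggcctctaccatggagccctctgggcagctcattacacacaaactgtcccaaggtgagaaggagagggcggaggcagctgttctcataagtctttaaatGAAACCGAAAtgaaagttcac
The Y box began 53, 51 and 62 bases before the start site in H2-D1, H2-Aa and H2-Eb1, in the region next to the core promoter. The response element began 139 bases before it in B2m, the light chain shared by class I molecules, and 21 bases before it in Ctss. B2m itself gave 1562 and 1464 on the isograft arrays and 3518, 3504 and 3206 on the tolerizing arrays (log2 difference 1.17 ± 0.25 SE, adjusted p = 0.0188), and its adjusted p was 0.115 and 0.076 without isograft arrays 1 and 2 and 0.0726 and 0.0506 without tolerizing arrays 1 and 2.

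Immunoglobulin transcripts, the product of antibody-secreting cells, rose at day 70 and were not called at day 7. Of 58 probe sets with an immunoglobulin symbol, 28 were called higher and 0 lower, beside 2.59% of all probe sets called higher. By gene, 11 of 17 light chain segments and 3 of 8 heavy chain genes were called higher, beside 2.38% of all genes higher, with median log2 differences of 2.97 and 2.52. These symbol lists were drawn up after the values had been seen. At day 7 the same lists had medians of 0.09 and 0.11, and 0 of the 58 probe sets were called higher. The difference between the days was itself tested for each probe set, and none passed. The smallest adjusted p of that test over all probe sets was 0.163, for Igkv10-96.

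**Figure D3:**
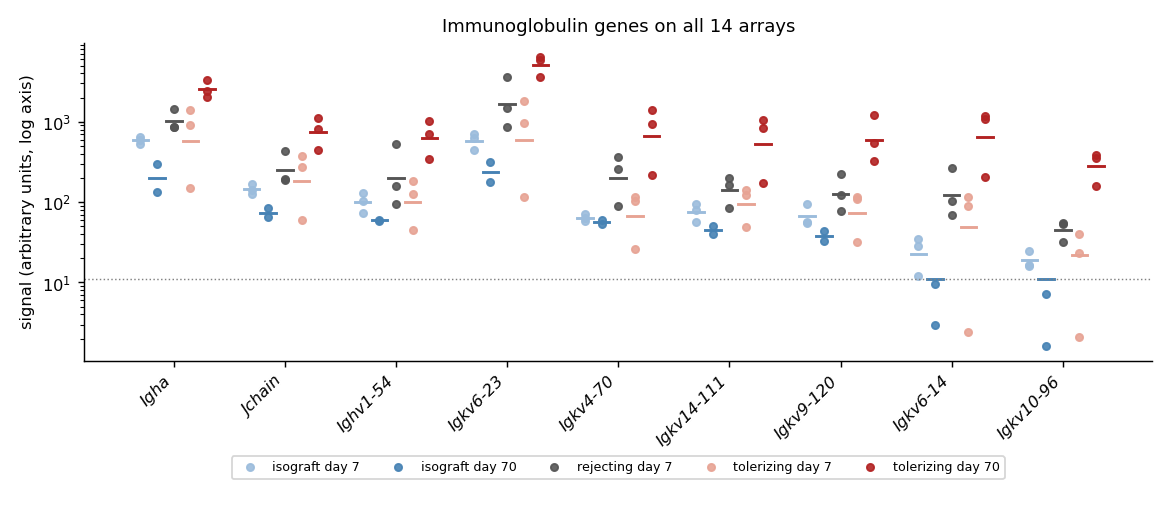
Signal (arbitrary units, log axis) of 8 immunoglobulin genes and Jchain on all 14 arrays, by group; points are arrays, bars are geometric means with values under the floor set to 11, and the dotted line is that floor. The day-70 tolerizing arrays are the highest of the 5 groups by geometric mean for each gene, the day-70 isografts the lowest, and the day-7 groups lie between them with wide spread among the allografts.

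Igkv10-96, a kappa variable segment, was under the floor on both isograft arrays at 7.1 and 1.6 and reached 387, 159 and 349.7 in tolerizing allografts. It was at least 25.3-fold higher against the floor of 11 (log2 difference 4.66 ± 0.51 SE), and like Gbp2b it is measured in this comparison only through the tolerizing arrays. Igkv6-23, another kappa segment, gave 314 and 179 on the isograft arrays and 6372, 3579 and 5915 on the tolerizing arrays, 21.6-fold (log2 difference 4.44 ± 0.87 SE, adjusted p = 0.0118). Igkv9-120 gave 33.2 and 43.6 against 1208, 321 and 539.9 (log2 difference 3.96 ± 0.61 SE, adjusted p = 0.0026). In both, tolerizing array 2 was the lowest of the 3 but still above both isografts. Igha, the constant region of IgA, gave 132 and 295 against 3307, 2056 and 2428 (log2 difference 3.69 ± 0.68 SE, adjusted p = 0.00826). Ighv1-54, a heavy chain variable segment, gave 60.4 and 58.5 against 1015, 341 and 703 (log2 difference 3.39 ± 0.68 SE, adjusted p = 0.0136). Jchain, which links IgA and IgM into polymers and marks antibody-secreting cells, gave 66 and 83.4 against 1130.1, 447 and 803 (log2 difference 3.32 ± 0.63 SE, adjusted p = 0.00954). Without isograft array 1 the adjusted p was 0.101 for Igkv6-23, 0.0679 for Igkv9-120, 0.187 for Igha, 0.158 for Ighv1-54 and 0.156 for Jchain. Igkv6-23 and Ighv1-54 also missed without isograft array 2 (0.0938 and 0.0768), and these and Jchain without tolerizing array 1 (0.0536, 0.0667 and 0.0512). Of the 11 light chain calls, 5 and 6 held without tolerizing arrays 1 and 3. The 11 include Igkv10-96 and Igkv6-14, which were under the floor on both isograft arrays and so had to differ. No light chain gene measured in both groups kept its call without isograft array 1.

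Ighm, the constant region of IgM, is read by several probe sets, and they disagreed. Chosen after its values were seen, the probe set with the largest difference gave 4.0 and 3.0 against 3738, 337 and 374 (log2 difference 6.14 ± 0.89 SE), with both isografts under the floor and tolerizing array 1 far above the other two. The brightest Ighm probe set gave 342 and 221 against 2846, 395 and 2631 and was not called (log2 difference 2.38 ± 0.71 SE, adjusted p = 0.089), its tolerizing array 2 lying close to the isografts. Variable segments of one family share sequence, and many of these probe sets are of the kind designed to match several transcripts, so single segments cannot be told apart by them. Some probe sets without a gene name here also rose at day 70 with a day-7 difference near 0. The one with the largest difference of all, likewise singled out after its values were seen, gave 4.1 and 4.9 against 3213, 512 and 2539.7 and had a log2 difference of 7.19 at day 70 and 0.36 at day 7. Of 5 B cell markers, 4 are on the array and none was called. Ms4a1, which encodes CD20, gave 72.4 and 69 against 75.7, 54.5 and 55.5. Cd79a, a chain of the B cell receptor complex, gave 54 and 90.5 against 101, 77.5 and 65.7. Cd79b gave 27.1 and 7.5 against 109, 68.1 and 54.8, and Cd22 8.0 and 9.8 against 40.2, 8.3 and 13.9. The groups overlapped for each of these markers except Cd79b. The summed signal of the 4 was 162 to 177 in isografts and 190 to 325 in tolerizing allografts. Ltb, a lymphotoxin chain made by lymphocytes, gave 9.0 and 21.1 against 239, 93 and 107 (log2 difference 3.13 ± 0.6 SE, adjusted p = 0.0102), and its adjusted p was 0.203 without isograft array 1 and 0.0529 without tolerizing array 1.

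The plasma cell regulators were not called. Xbp1 had a log2 difference of 0.96 (adjusted p = 0.0543), Prdm1 of 0.29 and Sdc1, the surface proteoglycan of plasma cells, of -0.03. The part of cell number in these values was not tested.

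T cell genes were higher on all tolerizing arrays in several cases, but few passed. Of 19 tested, 2 were called higher and 0 lower, beside 2.38% of all genes higher, with a median log2 difference of 0.97. Cd8b1, the beta chain of the CD8 coreceptor, was under the floor in isografts at 2.8 and 2.7 and gave 217, 63 and 58 in tolerizing allografts, at least 8.41-fold higher (log2 difference 3.07 ± 0.73 SE), so 1 of the 2 calls is of a gene kept only through the tolerizing arrays. Zap70, the kinase of the T cell receptor, gave 40.8 and 8.8 against 396, 217 and 146 (log2 difference 3.45 ± 0.83 SE, adjusted p = 0.0357). Cd8a was likewise under the floor in isografts (3.2 and 2.4 against 93.1, 44.3 and 43.3, at least 5.12-fold) and was not called. Cd3g, of the receptor complex, gave 13.5 and 5.8 against 107, 52.2 and 30.5 and was not called (adjusted p = 0.0905). In each of these genes tolerizing array 1 was the highest. Both calls were lost without isograft array 1 (0.264 and 0.0894), isograft array 2 (0.131 and 0.236) or tolerizing array 1 (0.147 and 0.149), and that of Zap70 also without tolerizing array 2 (0.072). Cd4, the coreceptor of helper T cells, was not called (78.5 and 60.4 against 86.6, 75.1 and 82.9).

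Of 16 costimulatory, checkpoint and regulatory T cell genes, 0 were called in either direction, with a median log2 difference of 1.18. Of those measured in both groups, the closest was Cd83, of activated dendritic cells (46.7 and 35.3 against 120.3, 112 and 109, adjusted p = 0.0784). Lag3, an inhibitory receptor of T cells, came next (31.1 and 32.4 against 111, 67.8 and 69.3, adjusted p = 0.0904). Il10ra, an interleukin 10 receptor chain, was under the floor in isografts (8.5 and 8.2 against 104, 35.6 and 34.4, at least 4.57-fold). It was kept only through the tolerizing arrays and so had to differ. The groups did not overlap in that direction for 9 of the 16, these genes among them, beside 12.9% of all probe sets.

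Among 15 cytotoxic and natural killer genes, 2 were called higher and 0 lower, beside 2.38% of all genes higher, with a median log2 difference of 0.74. Cst7, cystatin F of cytotoxic cells, was under the floor in isografts at 7.0 and 5.2 and gave 123, 88.4 and 74.6 in tolerizing allografts, at least 8.47-fold higher (log2 difference 3.08 ± 0.44 SE). It was kept only through the tolerizing arrays and so had to differ. Ccl5, the T cell chemokine RANTES, gave 9.3 and 28.1 against 723, 267 and 393, 24.1-fold (log2 difference 4.59 ± 0.81 SE, adjusted p = 0.00611), with an adjusted p of 0.158 without isograft array 1. The granule effectors were not called: Gzmb had a log2 difference of 1.06, Prf1 of 0.64 and Gzma of 0.39.

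Macrophage and monocyte genes rose widely, with 21 of 43 called higher and 0 lower, beside 2.38% of all genes higher, and a median log2 difference of 1.39. Of the 43, 41 had a positive difference and 31 did not overlap between the groups, beside 12.9% of all probe sets. Aif1, a cytoskeletal protein of macrophages, gave 7.4 and 39.3 on the isograft arrays and 434, 212 and 161 on the tolerizing arrays, 11.8-fold (log2 difference 3.56 ± 0.55 SE, adjusted p = 0.0026). Ctsz, a lysosomal cathepsin, gave 81.3 and 101 against 284, 245 and 270.0 (log2 difference 1.55 ± 0.22 SE, adjusted p = 0.00147) and was the one of the 21 whose call held without isograft array 1. Of the 5 marker genes, 2 were called. Lyz2, lysozyme, gave 289 and 835 against 1860.0, 1425 and 1802 (log2 difference 1.78 ± 0.34 SE, adjusted p = 0.0101). Csf1r, the growth factor receptor of the lineage, gave 168 and 287 against 448, 393 and 433 (log2 difference 0.95 ± 0.21 SE, adjusted p = 0.0265). Cd68, Adgre1 and Cd14 were not called. Cd14 overlapped between the groups (197 and 320 against 383, 276 and 555.5), while Cd68 and Adgre1 did not. Isograft array 1 was the lower isograft in all of these. Without it the adjusted p was 0.0746 for Aif1, 0.119 for Lyz2 and 0.33 for Csf1r, and Csf1r also missed without tolerizing arrays 1 (0.0937) and 3 (0.0632). The calls of the list numbered 1 without isograft array 1, 13 without tolerizing array 1, and 19, 20 and 18 without isograft array 2 and tolerizing arrays 2 and 3.

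Complement genes rose by their C1q chains, the sensor of bound antibody, which macrophages make. Of 12 tested, 4 were called higher and 0 lower, beside 2.38% of all genes higher. C1qb gave 197 and 518 on the isograft arrays and 2425, 1452 and 1586 on the tolerizing arrays, 5.55-fold (log2 difference 2.47 ± 0.38 SE, adjusted p = 0.00241). C1qa gave 273 and 610.3 against 2387, 1445 and 1634 and C1qc 428 and 743 against 2781, 1719 and 1815, with adjusted p = 0.00346 and 0.0026. Serping1, the C1 inhibitor, gave 512 and 737 against 1561, 1319 and 1399 (log2 difference 1.21 ± 0.22 SE, adjusted p = 0.00696). Without isograft array 1 these adjusted p were 0.0606 for C1qb, 0.085 for C1qa, 0.0679 for C1qc and 0.124 for Serping1, and all 4 held without any other array.

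Among 28 chemokines and receptors, 4 were called higher and 0 lower, beside 2.38% of all genes higher. Besides Cxcl9, the monocyte attractants Ccl8 (12.8 and 147 against 1704, 659 and 738, 21.6-fold, adjusted p = 0.00528) and Ccl7 (2.2 and 30.5 against 292, 93.4 and 75.3, adjusted p = 0.015) were higher. As a ratio, the isograft arrays of Ccl8 differed from each other by more than its tolerizing arrays did. Without isograft array 1 their adjusted p were 0.0815 and 0.273, and that of Ccl7 was 0.0523 without tolerizing array 1. The fourth was Cx3cl1, fractalkine (83.9 and 110.4 against 197, 177 and 229, log2 difference 1.05 ± 0.27 SE, adjusted p = 0.0456), whose call was lost whichever array was left out (0.4, 0.0673, 0.13, 0.0638 and 0.118). Of 13 neutrophil and alarmin genes 1 was called, beside 3.41% of all genes in either direction. It was Il1rn, the interleukin 1 receptor antagonist (29.4 and 6.6 against 172, 78 and 79.4, log2 difference 2.5 ± 0.53 SE, adjusted p = 0.0183), whose call was lost without isograft array 2 (0.157) or tolerizing array 1 (0.085). Of 14 adhesion genes, 2 were called higher, beside 2.38% of all genes higher. Itgb2, the beta chain of leukocyte integrins, gave 25 and 29 against 128, 93.2 and 161 (log2 difference 2.21 ± 0.37 SE, adjusted p = 0.00464), with an adjusted p of 0.087 without isograft array 1. Itgb7, a beta chain of mucosal homing integrins, gave 91.4 and 86.1 against 226, 171 and 148 (log2 difference 1.01 ± 0.26 SE, adjusted p = 0.0455) and missed without isograft arrays 1 and 2 (0.242 and 0.151) or tolerizing arrays 1 and 2 (0.181 and 0.0807). Vcam1 and Icam1, the endothelial ligands of leukocytes, gave 51 and 114 against 289, 178 and 202 and 16.9 and 22.7 against 60.7, 49 and 64.9, with adjusted p = 0.051 and 0.0604.

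Outside the immune lists, Gatm, which makes the creatine precursor guanidinoacetate, rose from 58.4 and 77 to 392, 223 and 198 (log2 difference 1.95 ± 0.27 SE, adjusted p = 0.00108), and the call held without any 1 array. It was the one call among 15 creatine and energy-transfer genes, beside 3.41% of all genes in either direction. Baiap2l1, an actin and membrane adaptor, was under the floor in isografts at 5.2 and 6.0 and gave 110.3, 226 and 266 in tolerizing allografts, at least 17.1-fold higher (log2 difference 4.09 ± 0.56 SE). Of 19 apoptosis genes, 3 were called higher, beside 2.38% of all genes higher, and without isograft array 1 or tolerizing array 1 none of the 3 calls was kept. Casp1, the caspase that matures interleukin 1 beta, gave 16.8 and 26.4 against 92.5, 59.2 and 67.5 (log2 difference 1.77 ± 0.38 SE, adjusted p = 0.0195), with 0.264 and 0.0889 in those fits. Casp4, an inflammatory caspase, gave 41.8 and 46.8 against 125, 111 and 73.2, with 0.269 and 0.149, and also missed without isograft array 2 (0.0856) or tolerizing array 2 (0.0925). Tnfrsf1b, a receptor of tumour necrosis factor, gave 88.6 and 74.9 against 224, 136 and 163, with 0.159 and 0.144, and also missed without isograft array 2 (0.151) or tolerizing array 3 (0.0641).

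Fewer probe sets were called lower (97) than higher (256), while more had groups that did not overlap in the lower direction, 22.4% against 12.9%. Igf2, a fetal growth factor expressed by stromal and endothelial cells, gave 534 and 405 on the isograft arrays and 100.2, 130.5 and 127 on the tolerizing arrays, a 3.93-fold fall (log2 difference -1.97 ± 0.23 SE, adjusted p = 0.000286). Pttg1, which encodes securin, gave 679.5 and 635 against 208, 168 and 203, 3.42-fold lower (log2 difference -1.77 ± 0.2 SE, adjusted p = 0.000286). Fbp2, the muscle fructose bisphosphatase, gave 73 and 81.6 against 6.6, 7.0 and 5.5, under the floor on all tolerizing arrays and so at least 7.02-fold lower (log2 difference -2.81 ± 0.36 SE). Sema3b, a secreted semaphorin, gave 33 and 46.7 against 14.4, 10.4 and 8.9 (log2 difference -1.71 ± 0.28 SE, adjusted p = 0.00375). The groups did not overlap in these genes, and the calls of Igf2, Pttg1 and Sema3b held without any 1 array.

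The largest fall was that of Inmt, a methyltransferase, at 433 and 249.8 against 25.7, 23.2 and 11.5, 17.3-fold lower (log2 difference -4.11 ± 0.7 SE, adjusted p = 0.00498). Clip4, a microtubule-binding protein, gave 433 and 279 against 33.3, 63 and 62.3 (log2 difference -2.78 ± 0.47 SE, adjusted p = 0.00474). Hopx, a homeodomain cofactor that represses serum response factor in heart muscle, gave 1603 and 1569 against 131, 413 and 400.3 (log2 difference -2.51 ± 0.47 SE, adjusted p = 0.0092). Aqp1, the water channel of microvessels, gave 539 and 232 against 53.1, 30.0 and 109 (log2 difference -2.66 ± 0.63 SE, adjusted p = 0.0332). Prkce, a protein kinase C isoform of the heart, gave 86.6 and 36.1 against 15.4, 17.1 and 16.2 (log2 difference -1.79 ± 0.33 SE, adjusted p = 0.00852). Cmbl, a hydrolase, gave 381 and 201 against 59.7, 114 and 63.4 (log2 difference -1.87 ± 0.37 SE, adjusted p = 0.0131). None of these 6 kept its call without isograft array 1, where the adjusted p was 0.115 for Inmt, 0.115 for Clip4, 0.123 for Hopx, 0.407 for Aqp1, 0.102 for Prkce and 0.249 for Cmbl. Hopx also missed without isograft array 2 (0.0554), Cmbl without tolerizing array 1 (0.0622), and Aqp1 without isograft array 2 or tolerizing array 1 or 2 (0.0506, 0.107 and 0.0955).

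**Figure D4:**
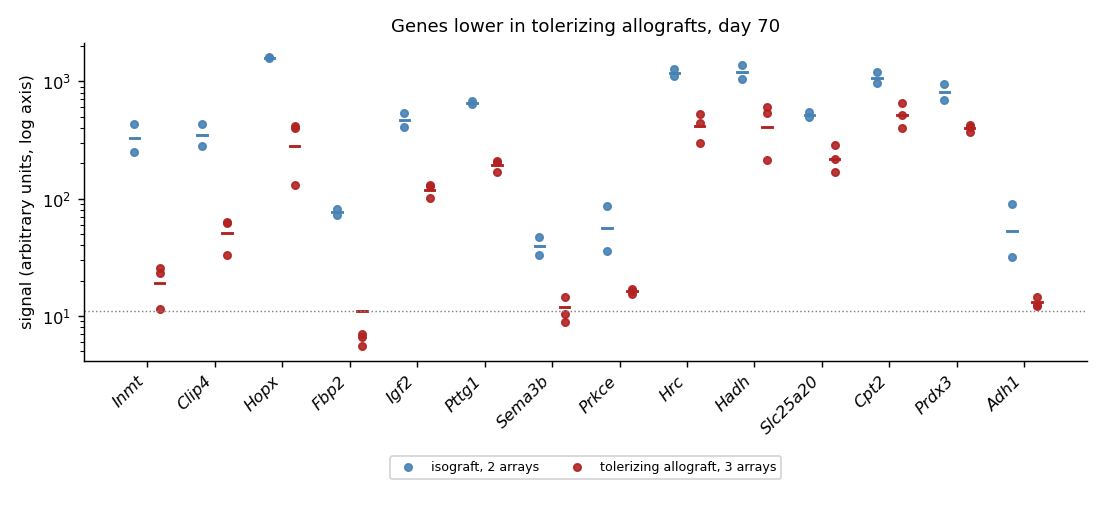
Signal (arbitrary units, log axis) of 14 genes that were called lower in tolerizing allografts at day 70, on the 2 isograft and 3 tolerizing arrays; points are arrays, bars are geometric means with values under the floor set to 11, and the dotted line is that floor. Both isograft arrays lie above all 3 tolerizing arrays for every gene drawn.

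Fatty acid uptake and oxidation, the main energy supply of the heart, gave few calls but 1 sign. All 29 tested genes had a negative log2 difference, with a median of -1.0, and for 21 of them the groups did not overlap, beside 22.4% of all probe sets in that direction. Only 3 passed the test, beside 1.03% of all genes lower. Hadh, a dehydrogenase of the beta-oxidation spiral, gave 1372 and 1051 on the isograft arrays and 213, 606 and 537 on the tolerizing arrays (log2 difference -1.55 ± 0.38 SE, adjusted p = 0.0387). Slc25a20, the carnitine-acylcarnitine carrier of the inner mitochondrial membrane, gave 548 and 492 against 167, 286 and 218 (log2 difference -1.25 ± 0.26 SE, adjusted p = 0.0155). Cpt2, which reforms acyl-CoA inside it, gave 1187 and 966 against 400.1, 654 and 515 (log2 difference -1.06 ± 0.26 SE, adjusted p = 0.0376). Tolerizing array 1 was the lowest and array 2 the highest of the tolerizing arrays in all 3. The 3 calls were lost without isograft array 1 (0.357, 0.185 and 0.346), isograft array 2 (0.0886, 0.0553 and 0.0747) or tolerizing array 1 (0.0862, 0.0688 and 0.155), and that of Cpt2 also without tolerizing array 3 (0.0767). Acot1, an acyl-CoA thioesterase, gave 78.7 and 64.7 against 9.8, 28.8 and 3.9 and was not called (adjusted p = 0.0626).

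The other mitochondrial lists gave no call. Of 22 citric acid cycle genes, 0 were called, 21 were negative and 15 did not overlap between the groups, with a median log2 difference of -0.54. Of 60 respiratory chain and ATP synthase genes, 0 were called, 58 were negative and 39 did not overlap, with a median of -0.55. Of all probe sets, 22.4% did not overlap in that direction. Idh2, the mitochondrial isocitrate dehydrogenase, gave 2887 and 1957 against 562, 1362 and 920.5 (adjusted p = 0.109), and Ndufa3, a subunit of complex I, 2448 and 2124 against 815, 1313 and 1057 (0.0581). Of these lists, 21 of the 22 and 58 of the 60 genes were above the floor on all 5 arrays.

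The contractile apparatus showed no call. Of 24 sarcomere genes, 0 were called, with a median log2 difference of -0.14. Acta1 had the highest difference of the list, 3.5 ± 1.19 SE (adjusted p = 0.14), with groups that did not overlap and isografts far apart at 52.8 and 2097. Myh6, the adult heavy chain of myosin, gave 6464 and 4976 against 3642, 5444 and 4723, and Tnni3, cardiac troponin I, 6597 and 4827 against 3078, 5137 and 3911. Of 20 calcium-handling and channel genes, Hrc, a calcium-binding protein of the sarcoplasmic reticulum, was the one called, at 1263 and 1103 against 297, 529 and 443 (log2 difference -1.52 ± 0.26 SE, adjusted p = 0.00531, 0.0997 without isograft array 1). That 1 call among 20 genes stands beside 1.03% of all genes lower. Kcnj11, the pore of the ATP-sensitive potassium channel, gave 159 and 88.4 against 16.3, 53 and 46.8 (adjusted p = 0.122). Of 18 natriuretic and cardiac stress genes, which also hold Acta1, 0 were called, and Nppa, atrial natriuretic peptide, gave 425 and 1078 against 2668, 2098 and 2570.4 (adjusted p = 0.109), its isografts differing between themselves.

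Matrix and vessel genes gave few calls. Of 44 collagen and matrix genes, 0 rose and 2 fell, beside 1.03% of all genes lower, with a median log2 difference of -0.40. Ogn, the proteoglycan osteoglycin, gave 479 and 375 against 86.3, 188 and 152 (log2 difference -1.65 ± 0.39 SE, adjusted p = 0.0354), and Mfap4, a microfibril protein, 154 and 88.9 against 44, 7.4 and 22.3 (log2 difference -2.4 ± 0.61 SE, adjusted p = 0.0465). Without isograft array 1 their adjusted p were 0.332 and 0.423, without isograft array 2 0.0885 and 0.0886, and without tolerizing array 3 0.0601 and 0.0895, with Ogn also missing without tolerizing array 1 (0.144) and Mfap4 without tolerizing array 2 (0.129). Col1a1, the main fibrillar collagen, gave 925 and 1514 against 952, 363 and 824 and was not called, and 0 of 16 matrix proteases and inhibitors were. Of 23 endothelial genes, Procr, the protein C receptor, was the one called (17.3 and 9.5 against 72, 38.4 and 42.5, log2 difference 1.83 ± 0.42 SE, adjusted p = 0.0289), and it missed without either isograft array (0.103 and 0.163) or tolerizing array 1 (0.128). That 1 call stands beside 2.38% of all genes higher, and most of the endothelial list lay in the other direction. Of the 23 genes, 19 had a negative log2 difference and 4 a positive one, with a median of -0.36. The groups did not overlap in the lower direction for 9 and in the higher for 1, beside 22.4% and 12.9% of all probe sets. Sox18, a vascular transcription factor, gave 339.6 and 251 against 120.4, 221 and 133 (adjusted p = 0.128). Of 27 antioxidant genes, 3 fell, beside 1.03% of all genes lower, and without isograft array 1 or any 1 tolerizing array none of the 3 calls was kept. They were Fmo1, a flavin monooxygenase (165 and 182 against 50.2, 75.6 and 71.5), which also missed without isograft array 2 (0.141), Gsta3, a glutathione transferase (36.8 and 25.4 against 12.2, 3.3 and 2.7), and Prdx3, the mitochondrial peroxiredoxin (950.3 and 691 against 368, 419.7 and 409, log2 difference -1.02 ± 0.23 SE, adjusted p = 0.028). In those 4 fits the adjusted p was 0.326, 0.105, 0.0514 and 0.0577 for Prdx3, 0.273, 0.0705, 0.0619 and 0.0625 for Gsta3, and 0.22, 0.149, 0.0514 and 0.0624 for Fmo1.

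Several lists gave no call in either direction: 38 cell cycle genes (median log2 difference 0.26), 23 glycolytic genes (-0.12), 13 smooth muscle genes (-0.17), 14 heat shock genes (0.29) and 29 ribosomal protein genes (-0.05). The heat shock mean was uneven, at -0.24, 0.18 and 1.57 above the isograft mean on tolerizing arrays 1, 2 and 3.

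The day-70 pattern was set beside that of the tolerizing allografts of day 7, which share no array with it but share the donor strain. At day 7, 176 of the same probe sets (1.78%) were called, 99 higher (1.00%) and 77 lower (0.778%). The beta-actin 3'/5' ratio moved with the groups at day 7, at 1.52, 1.98 and 1.58 in isografts and 1.09, 1.17 and 1.37 in tolerizing allografts, and with that ratio in the fit 8 probe sets were called, so the day-7 calls and the overlaps that use them hold only without it. Of the 256 that rose at day 70, 83 also rose at day 7, which is 32.4% of the day-70 list and 83.8% of the day-7 list. Of the 97 that fell, 41 fell at both days, 42.3% and 53.2% of the lists. None was called in opposite directions. The direction was the same at day 7 for 251 of the 256 and for 91 of the 97. All 6 day-7 allografts, tolerizing and rejecting, lay above all 3 day-7 isografts for 167 of the 256 (65.2%), beside 7.11% of all probe sets, and below them for 67 of the 97 (69.1%), beside 7.87%. Across the 9893 probe sets the 2 differences had a Pearson r of 0.584 and a Spearman rho of 0.512, given as a description.

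**Figure D5:**
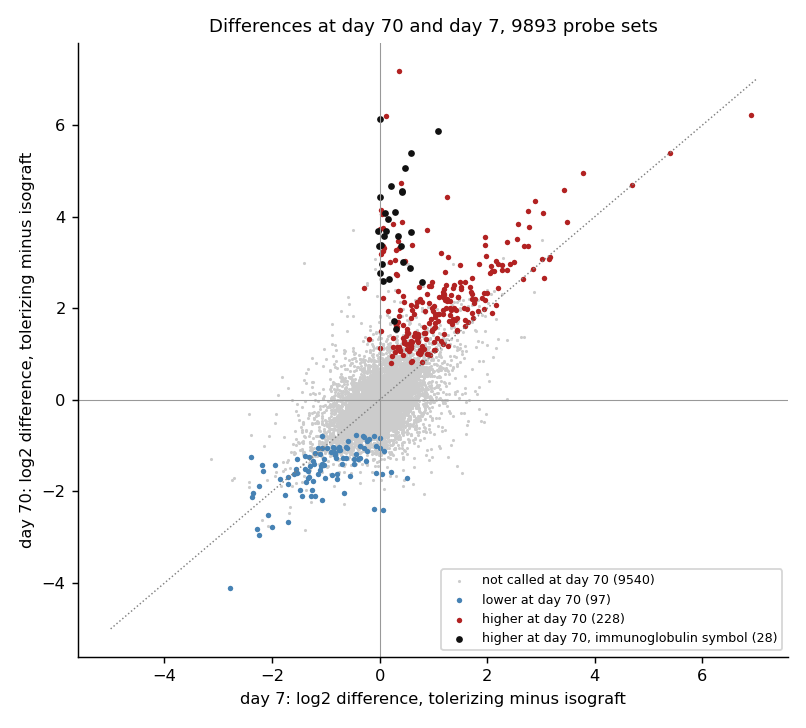
Log2 difference of tolerizing allografts minus isografts at day 70 (vertical) against day 7 (horizontal) for the 9893 probe sets, coloured by the day-70 call, with immunoglobulin symbols in black and equality as a dotted line. Many immunoglobulin probe sets lie high on the vertical axis near a day-7 difference of 0, and 251 of the 256 higher and 91 of the 97 lower calls have the same sign at both days.

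Of the 256 probe sets that rose, 246 had a larger difference at day 70 than at day 7, a count that choosing them by their day-70 value favours. Igtp had a log2 difference of 3.89 at day 70 and 3.49 at day 7, H2-Ea of 5.4 and 5.4, and Igf2 of -1.97 and -1.48. Hadh, at -1.55 and -2.17, was called at both days. By gene, 0.987% of all genes were called higher and 0.846% lower at day 7. Of the 43 macrophage genes, 2 were called higher at day 7 and 21 at day 70, with medians of 0.84 and 1.39. Above the day-70 isograft mean of that list, tolerizing arrays sat 1.91, 1.29 and 1.62 at day 7. At day 70 they sat 1.86, 1.13 and 1.33 above it. The day-7 isografts sat 0.6, 0.79 and 0.84 above it, higher than both day-70 isografts. C1qb had 2.47 at day 70 and 0.74 at day 7, and Ctsz 1.55 and 0.5. Mean C1qb signal was 938 at day 7 and 358 at day 70 in isografts, and 1596 and 1821 in tolerizing allografts. No probe set passed the test of the difference between the days, while 406 (4.10%) had an unadjusted p under 0.05, so no gene is shown to differ between day 7 and day 70. The 6 genes with the smallest p in that test were Igkv10-96, Sema3b, Igkv1-133, Igkv9-120, Igfals and Igha. Igkv1-133 had 3.35 at day 70 and -0.02 at day 7, Igha 3.69 and -0.03, Sema3b -1.71 and 0.5, and Igfals, the carrier subunit of insulin-like growth factors, -0.34 and -1.51. Their adjusted p ran from 0.163 to 0.629.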

How the data were processed

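Transplanted mouse hearts were profiled on 14 MG-U74Av2 arrays. The deposited table holds 1 signal intensity per probe set and array on a linear scale, scaled by the authors to a trimmed mean near 100, as found from the values. The signal software and the background step are not named by the labels or the file header, and the number of arrays limits the precision. Values under 11 were set to 11, log2 was taken, and limma 3.58.1 in R 4.3.3 was fitted to all 14 arrays in 5 groups (lmFit, eBayes with an intensity trend). Residual degrees of freedom were 9 and prior ones 4.49. P-values were adjusted by Benjamini-Hochberg over the 9893 probe sets, with a threshold of 0.05. Fold changes are on this floored scale and understate dim genes. Of the 12488 probe sets, 66 controls were left out.

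Probe sets were named through a platform annotation table and RefSeq. A gene is represented by its brightest probe set. The gene lists and members were chosen with earlier results of these data known. Named genes were the 12 largest rises and falls above the floor on all 5 arrays, the 8 brightest with 1 group under it, up to 4 genes per list by p, the 6 smallest p of the day-by-group test and genes with opposing probe sets. The immunoglobulin and MHC symbol lists were added after the values were seen, and some uncalled list members (Mx1, Mx2, Ciita, Cd4, Gzmb, Prf1, Gzma, Xbp1, Prdm1 and Sdc1) were likewise named after them. The labels state no pairing by replicate number, and the main fit used none. Same-numbered tolerizing and isograft arrays deviated with r of -0.094 and -0.179 at day 70, and -0.092, 0.049 and 0.206 at day 7. The 2 isografts of day 70 deviate from their mean as mirror images, so these values cannot decide whether the numbers pair samples. Only the limma step was tested on simulated data. Alternatives covered scaling, floor, filters, model, blocks and left-out arrays.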

Additional observations from a re-analysis of the deposited data

How the results depend on the processing

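At day 70, 353 probe sets were called. Fewer passed within the second accession run (166) or with the 2 groups fitted alone (163), and leaving out 1 array gave 77 to 333. With the replicate block 386 were called. The other settings gave 252 (floor of 40) to 433 (accession run as a block), and the floor of 40 moved the share that rose from 72.5% to 59.5%. Adjusting for beta-actin 3'/5' left 278. At day 7, 176 were called, against 113 with a floor of 40, 103 with no filter, 389 with array weights, 40 in the second accession run, 62 with the groups alone, 8 after adjusting for beta-actin 3'/5' and 80 to 139 with 1 array left out. For the difference between the days 0 were called, against 11 with a floor of 40, 3 with no filter and 0 to 3 with 1 array left out. Of 80 named genes with a call, 25 kept it without any 1 day-70 array, 74 with the replicate block, 79 with the run block, 77 and 78 under quantile and median scaling, 62 after the beta-actin adjustment, 45 with the groups alone and 33 in the second run. The cause of these changes was not tested. The table gives no detection calls, so signals near the floor of 11 have no order, and 2 isografts leave the spread of that group resting on the other groups.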
